A study of Mus musculus with 4 samples.

Results

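Proliferating macrophages were taken as cells that held transcripts of macrophages and of dividing cells at the same time. A cell was counted when it had at least 1 unique molecular identifier (UMI, a single captured RNA molecule) of C1qa, a chain of complement C1q, and of Lyz2, lysozyme. It also needed at least 1 UMI of Mki67, the proliferation antigen Ki-67, at least 1 UMI among Top2a, Birc5 and Pclaf, and no UMI of Cd3e or Ms4a1, which mark T and B cells. The cells were thus chosen by measured UMIs of these 8 genes, whose levels are given as a description. This rule was met by 59 cells, out of 21249 cells within the study's limits (over 200 and under 5000 genes, mitochondrial UMIs under 7.5%), and out of 26654 cells in the deposited matrices. They were 59 of 925 cells that met the macrophage criteria alone, and 708 of those 925 held no UMI of any of the 4 cycle genes and served as non-cycling macrophages. The other 158 macrophages held some cycle UMI without meeting the rule and were left out of the comparison of the 2 states.

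The cells came from inguinal white adipose tissue (IWAT) of male ChAT(BAC)-eGFP mice, in which a bacterial artificial chromosome drives eGFP from regulatory sequence of Chat, the gene for choline acetyltransferase, so that a sorted cell carries reporter activity of a transgene. Mice aged 5 weeks were held for 3 weeks at thermoneutrality (30 °C) and were then kept for 4 h at 30 °C or moved for 4 h to 4 °C, the latter after a day at room temperature that the 30 °C mice did not have. Live single eGFP+ cells of the stromal vascular fraction were sorted and sequenced as 2 libraries per temperature, each from 4 pooled mice. eGFP was not among the measured features, and Chat itself was found in 7 of the 59 cells, with 23 UMIs.

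In the division cycle, transcription factors of the E2F family switch on the genes for DNA replication in S phase. The DREAM and MuvB complexes with B-MYB and FOXM1 control the genes for mitosis through CHR elements of their promoters, which often hold CCAAT elements too. Histone messages of the replication-dependent kind rise while DNA is copied. Tissue macrophages can renew themselves by local division, with CSF1 acting through its receptor CSF1R as the main growth factor, and in fat the resident cells are known for Lyve1, Timd4 and Folr2, while monocyte-derived cells are known for Ccr2.

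Of the 59 cells, 18 and 7 came from 30 °C replicates 1 and 2, and 28 and 6 from 4 °C replicates 1 and 2. Their summed UMIs were 263608, 99103, 376021 and 98409 in the same order, 837141 in all. A proliferating macrophage held a median of 14167 UMIs (3480 to 25559), and a non-cycling macrophage held a median of 8326. Shares of cells with a transcript were therefore also taken at equal depth, as the share expected when every cell is thinned to 8127 UMIs, which 53 proliferating and 368 non-cycling macrophages reached.

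The markers fitted the macrophage name. Of the 59 cells, 58 held C1qb, C1qc, Csf1r and Mrc1, the mannose receptor, each counted on its own, and 56 held Adgre1 (F4/80) and Cd68. At equal depth C1qb was found in 99.0% ± 2.0 of proliferating macrophages (SD, n = 4 libraries) and in 99.0% ± 1.1 of non-cycling macrophages. It was found in 0.962% ± 0.607 of cycling T cells, a type that should lack it. Of the 1109 cycling T cells (median 18620 UMIs), 1019 reached that depth. The 9 monocyte markers summed to 418 UMIs in the 59 cells, 348 of them Ccr2, and 4 of the 9 were at 0, among them Ly6c2, Vcan and Chil3. The 9 dendritic cell markers summed to 39 UMIs, with Cd209a the most abundant at 15, and Xcr1, Flt3 and Ccl22 were at 0. For Ly6c2, 0 of 59 cells allows a share of cells with a UMI of up to 6.06% (upper end of the exact 95% interval, counting error only).

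Transcripts of other cell types were low but present. The 14 T cell genes summed to 223 UMIs, led by Trbc2 (49), the 11 B cell genes to 325 (Ighm 271), the 6 plasma cell genes to 132 (Igha 76), the 5 genes of innate lymphoid cells (ILCs) to 176 (Rora 54) and the 8 stromal and endothelial genes to 29. Of 42 Il13 UMIs, an ILC cytokine, 23 were in a single cell. Scrublet, a doublet caller, marked 4 of the 59 cells (6.78%) and 5 of the 708 non-cycling macrophages (0.706%). A count of cells with under 3 C1qa UMIs, with 5 or more UMIs of 8 T cell and ILC genes, or with 100 or more Igkc UMIs, set after the values had been seen, found 6 such cells among the 59 (0, 2, 3 and 1 by library) and 25 among the 708. None of the 59 cells shared its barcode with a cell of another library.

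The rule asked for single UMIs, and 10 of the 59 cells had exactly 1 Mki67 UMI, 8 had exactly 1 UMI of the other 3 cycle genes, and 6 had both. Over 80 genes of S phase and mitosis, the median cell held 150 UMIs (3 to 513), whereas the 6 cells just inside the rule held a median of 20. Just outside it, the 29 macrophages with Mki67 alone and the 129 with only the other cycle genes each held a median of 10, and non-cycling macrophages held 8. A further 13 cells met the UMI criteria but had 5000 genes or more.

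The 59 cells were spread over the cycle. Genes of S phase (40 genes) made up a median of 0.457% of a cell's UMIs (0.0132 to 1.28), against 0.0477% in non-cycling macrophages. Genes of G2 and mitosis (40 genes) made up 0.624% (0.0164 to 2.57), against 0.0438%. Mitotic UMIs outnumbered S phase UMIs in 31 cells and the reverse held in 28. By library, the cells richer in mitotic UMIs were 13 of 18 and 5 of 7 at 30 °C, and 11 of 28 and 2 of 6 at 4 °C. These fractions were higher in both 30 °C libraries than in both 4 °C libraries, but they are small counts of an outcome the rule bears on, and no test was made. With both lists added, 10 of the 59 cells stayed under 0.3% (2, 1, 6 and 1 by library), as did 687 of the 708 non-cycling macrophages.

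**Figure D1:**
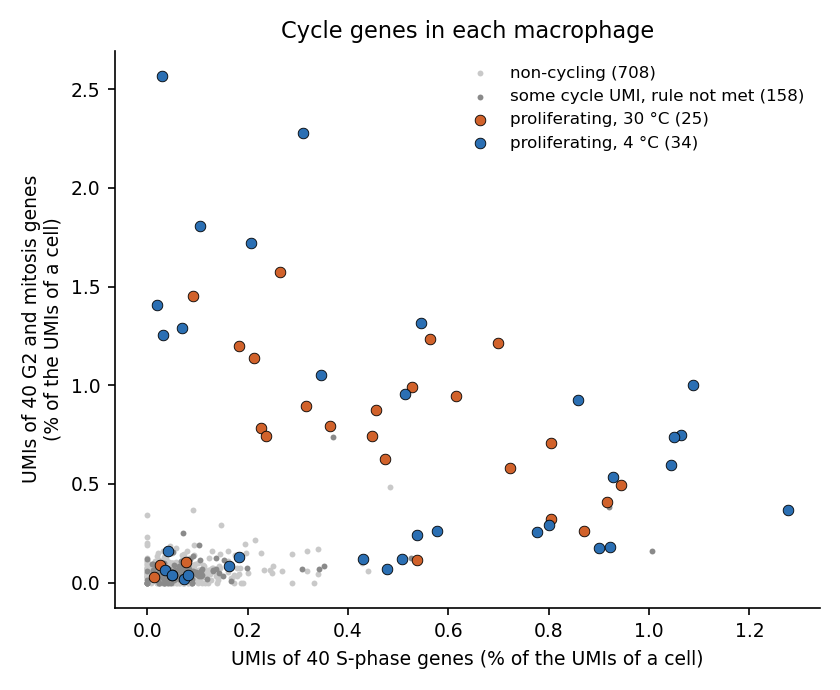
Each point is a macrophage, placed by the percent of its UMIs from 40 S phase genes (horizontal axis) and from 40 genes of G2 and mitosis (vertical axis), with proliferating cells coloured by temperature and non-cycling cells in grey. Proliferating cells spread over both axes up to 1.28% and 2.57%, and 10 of the 59 lie below 0.3% for both lists together.

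The share of macrophages that proliferated did not separate the temperatures. It was 10.98% (18 of 164, exact 95% interval 6.64 to 16.8) and 4.05% (7 of 173, 1.64 to 8.16) in the 30 °C libraries, and 6.45% (28 of 434, 4.33 to 9.19) and 3.90% (6 of 154, 1.44 to 8.29) in the 4 °C libraries. The means were 7.51% ± 4.90 and 5.17% ± 1.81 (SD, n = 2), a difference of -2.34 percentage points (two-sided exact permutation test, p = 0.667, where 2 against 2 libraries allow no p under 0.33). The groups overlapped, and without 30 °C replicate 1 the difference turned to 1.13 points. The number of macrophages themselves was highest in 4 °C replicate 1. Of all cells, proliferating macrophages were 0.347% and 0.130% in the 30 °C libraries and 0.526% and 0.112% in the 4 °C libraries, which overlapped as well.

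**Figure D2:**
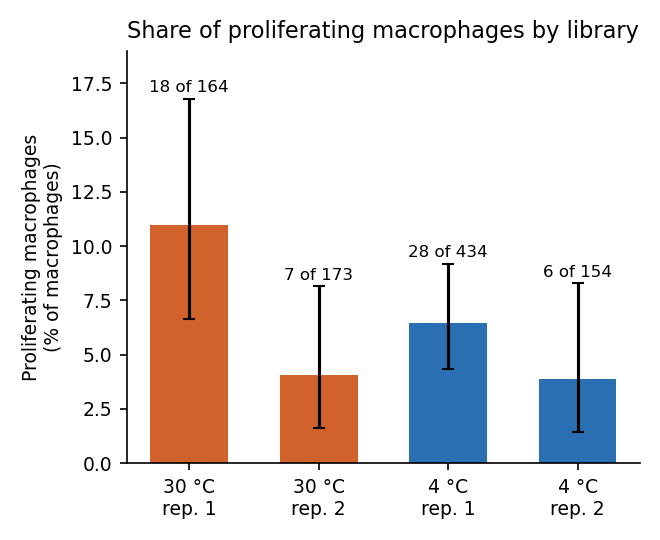
Bars give the percent of macrophages in each library that met the proliferation rule, with exact 95% intervals that cover counting error only, and the counts above them. The interval of 30 °C replicate 1, 6.64 to 16.8%, overlaps those of the other 3 libraries.

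Resident markers were present in many proliferating macrophages, with a wide spread between libraries of few cells. Folr2, folate receptor beta, was found at equal depth in 68.4% and 55.9% of proliferating cells at 30 °C and in 79.9% and 94.0% at 4 °C, against 77.2%, 75.3%, 76.3% and 81.4% of non-cycling cells. The mean difference was -3.00 ± 14.0 points (SD, n = 4), lower in 2 of 4 libraries (two-sided exact paired permutation test, p = 0.75, where 4 pairs allow no p under 1 in 8), and only 0.244% of cycling T cells held the transcript. With all UMIs of each cell, or without 30 °C replicate 2, the difference turned positive (0.64 and 2.46 points).

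Lyve1, a hyaluronan receptor of perivascular resident macrophages, was found in 63.8% and 85.0% of proliferating cells at 30 °C and in 21.0% and 21.6% at 4 °C. Non-cycling cells stood at 65.8%, 69.1%, 23.3% and 23.8%. In both states the 2 temperatures did not overlap. Timd4, a receptor for phosphatidylserine on dying cells, was found in 26.2% ± 6.4 and 30.5% ± 7.4.

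Ccr2, the receptor for CCL2, was found in 28.5% and 38.5% of proliferating cells at 30 °C and in 77.7% and 65.2% at 4 °C, above the non-cycling cells of the same library in all 4 cases (14.1%, 14.6%, 44.9% and 44.4%). Ccr2 is also a T cell transcript, found here in 46.4% ± 11.1 of cycling T cells. Among markers of lipid-associated macrophages, Trem2 was found at equal depth in 8.91% ± 7.14 of proliferating and 21.2% ± 4.7 of non-cycling cells, and with all UMIs in 15.3% and 16.8%. Itgax (CD11c) was found at equal depth in 4.31% ± 5.00 and 11.5% ± 6.2 and with all UMIs in 8.47% and 9.04%, and Spp1 (osteopontin) at equal depth in 7.51% ± 5.17 and 1.90% ± 1.83. Chat was found in 5.70% ± 6.93 and 7.67% ± 3.95 of the 2 states and in 32.0% ± 6.7 of cycling T cells.

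**Figure D3:**
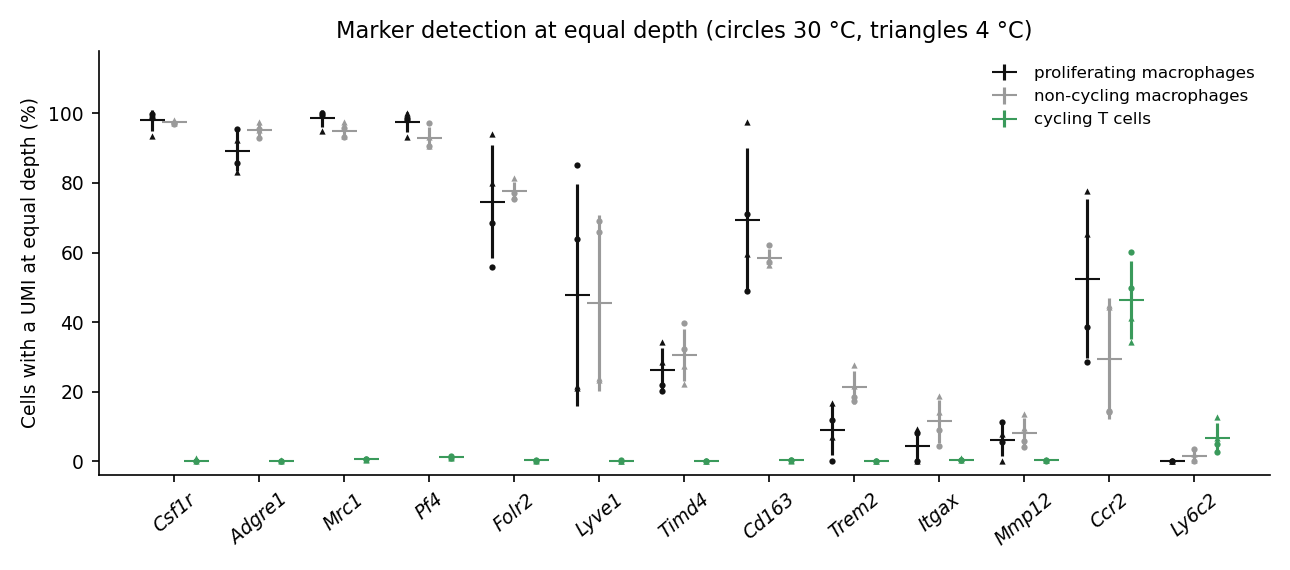
Small points give, for each library (circles 30 °C, triangles 4 °C), the percent of cells with at least 1 UMI of a marker (vertical axis) at an equal depth of 8127 UMIs, with the mean as a horizontal and the SD over 4 libraries as a vertical line, for proliferating macrophages, non-cycling macrophages and cycling T cells. Folr2 lies between 55.9% and 94.0% in proliferating and between 75.3% and 81.4% in non-cycling macrophages, and of the markers drawn cycling T cells exceed 2% for Ccr2 and Ly6c2 (means 46.4% and 6.76%).

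UMIs were next summed per library and state, and the 2 states were compared within libraries with edgeR (quasi-likelihood test, Benjamini-Hochberg adjustment over all 7200 genes tested). Levels are given as UMIs per 1000000 of a sum (CPM), in the order of 30 °C replicates 1 and 2 and 4 °C replicates 1 and 2. Fold changes are log2 values with standard errors (SE). Each SE is the size of the log2 fold change divided by the square root of the F statistic of the test. Of the genes tested, 853 (11.8%) passed an adjusted p of 0.05, 527 (7.32%) higher and 326 (4.53%) lower in proliferating macrophages, and the median over all tested genes was -0.05.

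Cycle genes were what chose the cells, so their values are a description. All 36 tested genes of the S phase list were higher, with a median log2 fold change of 3.12, and so were all 35 tested genes of the G2 and mitosis list, with a median of 4.90. Mcm5, a subunit of the replicative helicase, was at 137, 172, 197 and 183 CPM in proliferating macrophages and at 11.3, 15.6, 20.8 and 25.98 in non-cycling ones (log2 fold change 3.17, SE 0.23). Ccnb2, cyclin B2, was at 175, 151, 202 and 30.5 CPM against 2.61, 5.47, 0.731 and 1.92 (5.90, SE 0.43). Mcm5 was similar in the 4 libraries, and Ccnb2 was lowest in 4 °C replicate 2, which held 6 cells.

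The promoters of these 2 genes are shown because they carry the elements by which the 2 phases are known to be switched on. Each is 250 bases before and 50 after the transcription start, 5′ to 3′ in the direction of the gene, in RefSeq's sequence for GRCm38.p6. For Mcm5 (chr8:75109259-75109558, plus strand) the capitals mark 2 overlapping matches to the E2F letters TTTNNCGC on either strand, and for Ccnb2 (chr9:70421505-70421804, minus strand) they mark CCAAT and the CHR letters TTTGAA.
Mcm5: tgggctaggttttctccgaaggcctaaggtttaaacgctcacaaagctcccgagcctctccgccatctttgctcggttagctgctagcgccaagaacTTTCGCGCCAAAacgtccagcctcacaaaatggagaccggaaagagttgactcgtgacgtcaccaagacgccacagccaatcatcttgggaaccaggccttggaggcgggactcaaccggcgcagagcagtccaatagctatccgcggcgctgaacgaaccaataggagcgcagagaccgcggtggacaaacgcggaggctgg
Ccnb2: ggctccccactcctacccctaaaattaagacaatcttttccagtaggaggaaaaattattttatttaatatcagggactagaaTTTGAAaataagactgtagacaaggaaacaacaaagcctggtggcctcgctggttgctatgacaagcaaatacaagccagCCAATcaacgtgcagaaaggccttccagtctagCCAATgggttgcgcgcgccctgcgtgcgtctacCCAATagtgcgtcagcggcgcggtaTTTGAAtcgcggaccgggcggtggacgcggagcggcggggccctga

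In Ccnb2 the 3 CCAAT matches begin at positions -87, -54 and -21 and the CHR matches at -167 and 4, with the start site as position 0. At least 3 CCAAT matches and a CHR match together were found in 0.692% of 27025 promoter windows. Of the 40 genes of G2 and mitosis, 34 had a promoter in the table, and 82.4% of these held a CHR match (TTTGAA or TTCGAA, both strands) against 19.4% of all windows, and 79.4% held CCAAT on either strand against 37.9%. Of the S phase genes 30 had one, and 36.7% held the E2F letters on either strand against 5.27% of all windows, while 60.0% held CCAAT, of which the Mcm5 window has 3 matches that are not in capitals. These are matches of letters and not bound sites.

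Outside the fixed lists, the naming rule took the 10 genes with the largest rises. The cells were chosen by cycle transcripts, so the values of these genes, which also go with cell division, are a description too. Esco2, which ties sister chromatids together, had 76 UMIs in proliferating macrophages (152, 161, 45.2 and 30.5 CPM) and none in non-cycling ones, a share at least 188-fold higher when 3 UMIs are allowed over the non-cycling group. Aspm, a spindle pole protein, had 104 UMIs against 1 (ratio 771, counting interval 135 to 30740). Foxm1, the transcription factor of the mitotic genes, was at 121, 141, 98.4 and 20.3 CPM against 1.74, 0, 0.366 and 0.962. Sgo1, which protects cohesion, Pbk, a mitotic kinase, Spag5, a spindle protein, Neil3, a DNA glycosylase, Pimreg, Prr11 and Ncapg, a condensin subunit, completed the 10 largest. Within the lists the largest included Hmmr, Ccne2 (cyclin E2), Hist1h2ap, Ccna2 (cyclin A2), Hist1h1b, Kif11 (the spindle kinesin Eg5), Ckap2l, Cenpf and Tpx2.

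Of 11 tested histone genes 9 were higher. Hist1h2ap, a replication-dependent H2A gene, was at 3084, 2210, 545 and 681 CPM against 19.1, 18.8, 6.22 and 12.5, and 33 of the 59 cells held it. H2afz, a variant made outside S phase too, had a log2 fold change of 2.05. Histone genes of a class are near-identical, and reads can be split among them, so single members are uncertain.

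In the list of cyclin D genes, brakes and quiescence genes, 4 of 21 tested rose and none fell. Cdk4, the kinase partner of cyclin D, was at 114, 151, 125 and 102 CPM against 35.6, 49.2, 51.6 and 50.03, with no overlap (log2 fold change 1.33, SE 0.22, edgeR adjusted p = 2.7e-04). The other 3 were brakes: the INK4 inhibitors Cdkn2c (2.50, SE 0.23) and Cdkn2d (1.98, SE 0.33), and Rbl1 (p107, 2.77, SE 0.37). Ccnd1, cyclin D1, had a value of 0.36 (SE 0.21, adjusted p = 0.338) and Cdkn1a (p21) of 0.41 (SE 0.27, adjusted p = 0.405) by edgeR.

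Of 7 tested genes of nucleotide and one-carbon synthesis 3 rose, namely Paics of purine synthesis (1.25, SE 0.19), Impdh2 of guanine nucleotide synthesis (1.06, SE 0.23) and Mthfd2 of the mitochondrial folate cycle (1.75, SE 0.40). Of 12 tested glycolysis genes 1 rose, a share near the 7.32% of all genes tested that rose. It was Gapdh (0.44, SE 0.13, edgeR adjusted p = 0.032), a call lost in 8 of 15 alternative analyses.

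Csf1r was at 1036, 757, 766 and 1169 CPM in proliferating and 1071, 1072, 1188 and 1103 in non-cycling macrophages, which overlapped (-0.36, SE 0.14, edgeR adjusted p = 0.116). Of 15 tested regulators of macrophage growth none rose and 2 fell, the transcription factors Irf8 (-1.40, SE 0.23) and Cebpa (-0.67, SE 0.21), a share near the 11.8% of all genes tested that were called. The Cebpa call was lost in 10 of 15 alternative analyses and its direction in none. Maf and Klf4 had values of -0.21 and -0.14, Myc had 0.64 (SE 0.35), and none of these 3 passed the test. Csf1 itself had 2 UMIs in the 59 cells.

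Of 15 tested general macrophage genes none rose, 5 fell and 10 did not pass, with a median of -0.42. Apoe, apolipoprotein E, was at 5649, 4036, 4282 and 5558 CPM against 10820, 10670, 8244 and 7935, so that every proliferating sum lay below every non-cycling sum (-1.03, SE 0.11, edgeR adjusted p = 3.2e-06). Ctss, a lysosomal protease, had a value of -1.30 (SE 0.17), Ms4a7 of -0.98 (SE 0.19), Mertk, a receptor for dying cells, of -1.07 (SE 0.27) and C1qc of -0.43 (SE 0.10). The Mertk call was lost in 5 and the C1qc call in 4 of 15 alternative analyses, for both also without 30 °C replicate 2. Cd68 (-0.04, SE 0.14) and the lineage factor Spi1 (0.00, SE 0.17) were among the 10.

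Of 15 resident macrophage genes 8 fell and none rose, with a median of -0.71. Folr2 was at 531, 414, 559 and 508 CPM against 860, 667, 786 and 776, again with no overlap (-0.70, SE 0.13, edgeR adjusted p = 0.0012), a difference in level beside shares of cells that overlapped. Lyve1 was at 467, 444, 50.5 and 50.8 CPM against 887, 757, 128 and 129, lower in every library. The selenium carrier Selenop fell by 0.93 (SE 0.11) on the log2 scale and the lectins Cd209f, Fcna and Cd209d by 1.59, 1.56 and 1.32. Mrc1 (-0.33, SE 0.11), the chemokine Pf4 (-0.05, SE 0.12) and Cbr2 (-0.02, SE 0.16) did not pass.

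Of 13 tested genes of lipid handling and lysosomes 11 fell, with a median of -0.99, Apoe being on this list and on that of general macrophage genes. Ctsb, cathepsin B, was at 2204, 1998, 2005 and 1982 CPM against 3502, 3600, 3452 and 4021, the values within each state close together and far from the other (-0.91, SE 0.10, edgeR adjusted p = 5.4e-06). The proteases Ctsl (-1.64, SE 0.23) and Ctsd (-1.26, SE 0.19), the cholesterol exporters Abca1 (-1.31, SE 0.20) and Abcg1 (-1.10, SE 0.30, a call lost in 7 of 15 alternative analyses) and the scavenger receptor Cd36 (-0.98, SE 0.13) were among the 11. Lamp1 and Soat1, also among the 11, each lost their call in 8 of 15 alternative analyses, among them all 4 with a library left out. Npc2 lost its call in 3 of 15. Of 10 tested genes of lipid-associated macrophages 7 fell, with a median of -1.15.

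Mmp12, macrophage elastase, had the largest fall of those the naming rule picked. It was at 7.59, 30.3, 61.2 and 0 CPM against 302, 227, 355 and 504 (-3.56, SE 0.35, edgeR adjusted p = 8.6e-07). With all UMIs it was found in 5 of 59 cells (8.47%) against 45 of 708 (6.36%), and at equal depth in 6.15% ± 4.74 against 8.24% ± 4.23 (SD, n = 4 libraries), so that its level in non-cycling macrophages came from those 45 cells. Other large falls were those of Fam214b, the scavenger receptor Colec12, Mafk, the complement gene C6, the endothelin receptor Ednrb, Pianp, Dip2c and Hebp1, each with 18 or fewer UMIs in the 59 cells. Calls were lost in 5 of 14 alternative analyses for Pianp, 5 of 13 for Dip2c, 3 of 14 for Hebp1 and 2 of 13 for Mafk. Fam214b, Colec12 and C6 each lost their call in 1, and Ednrb in none. Igkc, an immunoglobulin light chain, was also among the large falls, with its call lost in 6 of 15 alternatives, and 4 non-cycling cells held 89.2% of the 22705 Igkc UMIs of that state.

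Of 7 tested MHC class II genes 4 fell by small amounts, such as H2-Ab1 by 0.61 (SE 0.09) and Cd74 by 0.47 (SE 0.08). Of 12 tested immediate early genes 4 fell, among them Junb by 1.08 (SE 0.15) and Ier3 by 1.35 (SE 0.22), and Fos had a value of -0.28 (SE 0.21). Egr1 and Ier2, also among the 4, each lost their call in 4 of 15 alternative analyses, 3 of them with a library left out. Of 22 tested chemokines and receptors 6 fell, with Ccl8 the furthest (-2.00, SE 0.27), and of 11 interferon-stimulated genes 2 fell, Ifit3 and Rsad2. Calls were lost in 8 of 15 alternatives for Ccl24, 5 of 14 for Cxcl9 and 2 of 12 for Ifit3. Of 14 phagocytosis receptors 4 fell, among them the heme oxygenase gene Hmox1 kept on that list (-1.49, SE 0.21), and of 15 glucocorticoid and FOXO response genes 5 fell. Sesn1, among these 5, lost its call in 9 of 15 alternatives. In the 4 tested genes of the T cell list and the 4 of the monocyte list none was called. Ccr2, on the monocyte list, had a value of 0.43 (SE 0.17, edgeR adjusted p = 0.130), and Chat of 0.41 (SE 0.61). Of 4 tested B cell genes, 3 plasma cell genes and 1 dendritic cell gene, 1 each fell. These were Ighm (-1.40), Jchain (-2.49) and Cd209a (-1.59), with calls lost in 6, 4 and 5 of 15 alternative analyses. Of the 166 called genes of the lists or the naming rule, 93 were called in every alternative analysis. The 2 states differed in UMIs per cell. After thinning all cells to 8127 UMIs, 123 of the 133 still tested were called and none changed direction. Both counts include cycle and histone genes, whose rise follows from how the cells were chosen, and other genes were not counted apart. Apoe, Ctsb, Folr2, Selenop and Cd36 were among the falls called in every alternative, thinning included.

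**Figure D4:**
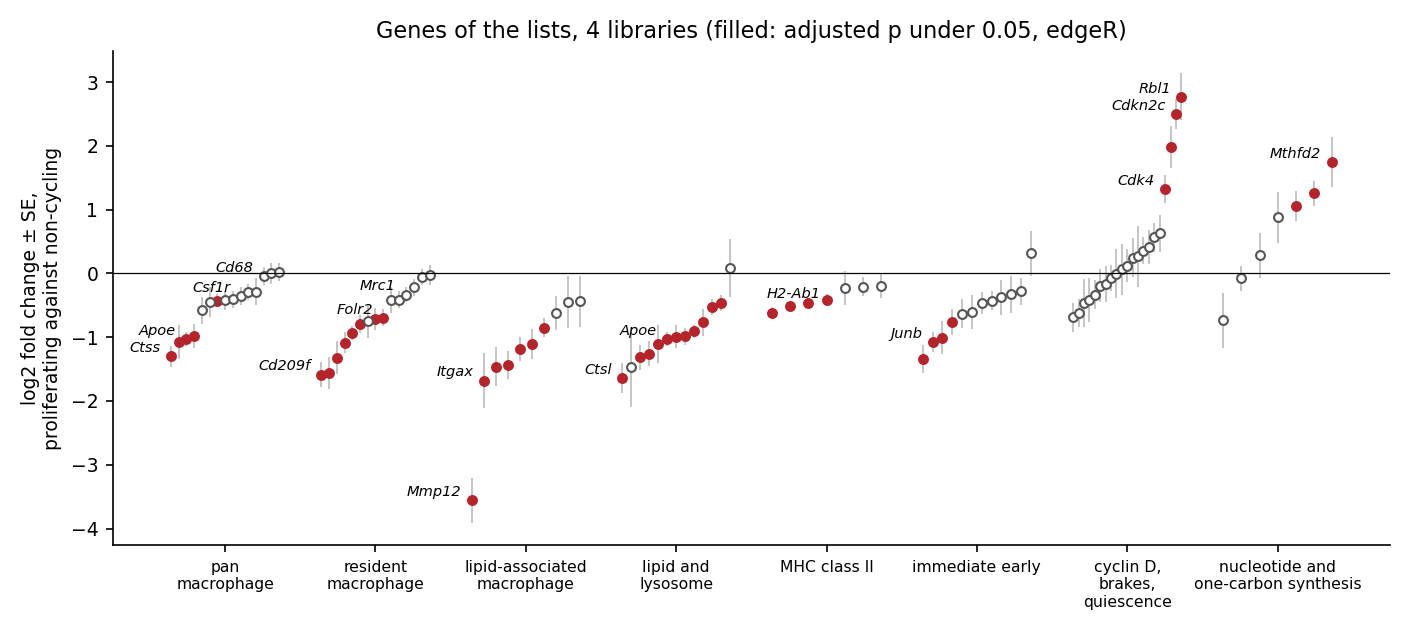
Points give log2 fold changes (vertical axis) of proliferating against non-cycling macrophages for each tested gene of 8 lists. Bars are SE derived from the edgeR test over 4 libraries, and points are filled where the edgeR adjusted p was under 0.05. Filled points of the macrophage, lipid and lysosome, MHC class II and immediate early lists lie below 0, down to Mmp12 at -3.56, and filled points of the last 2 lists lie above 0, up to Rbl1 at 2.77.

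Between temperatures, proliferating macrophages of 4 °C were compared with those of 30 °C over the 4 summed libraries. Lower at 4 °C were 8 of 12 tested genes of the glucocorticoid and FOXO response list. Some chemokines and their receptors rose while others fell. Of 3325 genes tested with edgeR, 114 passed (3.43%), 52 higher (1.56%) and 62 lower (1.86%) at 4 °C. In 1474 of them (44.3%) both 4 °C libraries lay above or below both 30 °C libraries, the background for such non-overlap below. The count depended on the cells let in and on the test: it was 15 when cells with 5000 genes or more were added, 17 with 3 UMIs of C1qa and Lyz2 required and lymphocyte genes barred, and 54 with DESeq2 in place of edgeR. None of the 39 called genes of the lists or the naming rule changed direction in any alternative, and 7 of the 39 were called in all of them: Ccr2, Ddit4, Fkbp5, Klf9, Lyve1, Mt2 and Tsc22d3.

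Of 12 tested genes of the glucocorticoid and FOXO response list 8 fell and none rose, with a median of -3.21 beside 0.01 over all genes tested. Tsc22d3, the glucocorticoid-induced leucine zipper GILZ, had 349 and 116 UMIs at 30 °C and 35 and 12 at 4 °C, or 1324 and 1170 against 93.1 and 122 CPM (-3.59, SE 0.29, edgeR adjusted p = 2.8e-04). Fkbp5, a chaperone of the glucocorticoid receptor, had 131 and 42 against 21 and 3 UMIs (-3.22, SE 0.34, adjusted p = 6.6e-04 by edgeR). Both genes separated the temperatures with no overlap.

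Ddit4 (REDD1), a brake on mTORC1, had 85 and 22 UMIs at 30 °C and 3 and 0 at 4 °C, a ratio of pooled shares of 46.7 (counting interval 15.5 to 230). Klf9, a transcription factor induced by glucocorticoids, had 55 and 22 against 6 and 0, and the clock gene Per1 had 53 and 19 against 5 and 4. Zbtb16 and Mt1 fell as well, by 3.19 and 1.95 on the log2 scale. In non-cycling macrophages, with more cells, 13 of the 15 genes of this list fell and 1 rose, Nr3c1, the glucocorticoid receptor (1.09, SE 0.12), where 15.5% of 8465 tested genes were called, 7.81% higher and 7.7% lower. Cycling T cells of the same libraries, compared after values had been seen, also had lower Tsc22d3 (-1.69, SE 0.12), Fkbp5 (-1.24, SE 0.09) and Ddit4 (-2.00, SE 0.12) at 4 °C.

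Mt2, a metallothionein that binds zinc and is induced by metals and glucocorticoids, had 56 and 40 UMIs at 30 °C and 2 and 2 at 4 °C, or 212 and 404 against 5.32 and 20.3 CPM (-4.97, SE 0.60, edgeR adjusted p = 0.0017). Its promoter window (chr8:94172368-94172667, plus strand, RefSeq, GRCm38.p6) is shown because it is dense in matches to letters of the metal response element by which these genes are known. Capitals mark its 6 matches to the letters searched for, TGCNCNC on either strand. With any base allowed at N these are a loose form of the element's core, and matches of letters are not bound sites.
Mt2: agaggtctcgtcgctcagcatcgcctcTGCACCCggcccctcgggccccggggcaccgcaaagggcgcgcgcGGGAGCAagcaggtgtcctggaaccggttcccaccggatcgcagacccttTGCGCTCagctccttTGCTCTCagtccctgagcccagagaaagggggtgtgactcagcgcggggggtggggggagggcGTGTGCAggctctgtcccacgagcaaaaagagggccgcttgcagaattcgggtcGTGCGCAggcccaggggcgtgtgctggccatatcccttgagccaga

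At least 6 matches were found in 0.207% of all 27025 windows, and at least 1 in 50.4%, so a single match says little. The Mt1 window held 3, as many or more than which were found in 6.95% of windows.

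Chemokine genes and receptors moved in both directions, with 6 of 16 tested higher and 3 lower at 4 °C. Ccr2 had 21 and 6 UMIs at 30 °C and 241 and 80 at 4 °C, or 79.7 and 60.5 against 641 and 813 CPM (3.30, SE 0.32, edgeR adjusted p = 6.0e-04). Ccl12 (MCP-5), a ligand of CCR2, had 9 and 8 against 203 and 34 UMIs (3.22, SE 0.41), of which single cells held 6, 8, 94 and 17, and the CCR2 ligands Ccl2 and Ccl7 rose by 2.34 (SE 0.33) and 2.19 (SE 0.48), Ccl7 with 0.94 and no call without 4 °C replicate 1. Both 4 °C libraries lay above both 30 °C libraries in these genes.

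The fractalkine receptor Cx3cr1 had 0 and 1 against 45 and 9 UMIs, held by 8 cells, with 41.8% of them in 1 cell. Ccl6, Ccl9 and Cxcr4 fell by 1.86, 1.81 and 1.58, Cxcr4 with its call lost in 5 of 14 alternatives. Cycling T cells had a lower Ccr2 at 4 °C (-0.82, SE 0.10). The T cell list made up 0.0083%, 0.0343%, 0.0370% and 0.0285% of the UMIs of proliferating macrophages in the 4 libraries and the ILC list 0.0057%, 0.0182%, 0.0279% and 0.0386%. Of the called genes still tested without the 6 cells with transcripts of other types, 36 of 36 stayed called. With the stricter macrophage rule, which bars cells with lymphocyte genes, 9 of the 30 still tested stayed called and none changed direction. That rule left 12, 3, 13 and 4 proliferating macrophages by library, so fewer calls can also follow from fewer cells.

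Other genes with large rises were Icam1, an adhesion molecule (1 and 0 against 33 and 22 UMIs, in 15 cells), Slamf8 (2 and 0 against 52 and 7), the inhibitory receptor Lair1 (3 and 4 against 57 and 23), Ptpre, and Pou2f2, the transcription factor Oct-2 (8 and 1 against 83 and 20). Retnla, a secreted product of alternatively activated macrophages, had 89 and 14 UMIs at 30 °C and 675 and 545 at 4 °C, of which 84, 7, 320 and 535 were in a single cell of each library, and its call was lost in 3 of 14 alternatives. Il13 was also called, with no UMI at 30 °C and 24 and 18 at 4 °C (a share at least 10.7-fold higher when 3 UMIs are allowed over the 30 °C group). Of these 42 UMIs 41 were in 3 of the 6 cells with transcripts of other types, cells that are in that count also when Il13 is left out of its genes, and 1 was in another cell. The cell with 23 of them held 1 UMI of C1qa and none of C1qb, C1qc or Csf1r. Among large falls outside the glucocorticoid list were Egfr, the receptor of epidermal growth factor (22 and 8 against 1 and 0), Trim11 (17 and 10 against 2 and 1, a call lost in 6 of 12 alternatives) and Jaml, an adhesion molecule (85 and 19 against 11 and 1).

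Lyve1 had 123 and 44 UMIs at 30 °C and 19 and 5 at 4 °C (-3.15, SE 0.31, edgeR adjusted p = 6.0e-04), and Cd209f rose (2.14, SE 0.34), while the other 10 tested resident genes were not called, Folr2 among them (0.18, SE 0.25). Of the lipid-associated list Lpl, lipoprotein lipase, rose (2.53, SE 0.39) and Fabp4 fell by 2.25 (SE 0.40), and of 2 tested genes of nerve-associated macrophages St3gal6 rose (2.38, SE 0.47) beside Cx3cr1. Lipa, the lysosomal acid lipase, rose by 1.38 (SE 0.32), a call lost in 7 of 14 alternatives, among them the analyses without 30 °C replicate 1, 30 °C replicate 2 and 4 °C replicate 1. The calls of Fabp4 and St3gal6 were each lost in 5 of 14, among them without 4 °C replicate 1 (-1.57 and 2.79). None of 14 general macrophage genes and none of 7 MHC class II genes was called, which is close to the 3.43% called among all genes tested.

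Of 28 tested S phase genes (median -0.12) and 30 tested mitosis genes (median -0.16) none passed, beside 3.43% of all genes tested, and the cells had been chosen by transcripts of the cycle. Esco2, named above outside these lists, was called and lay lower in both 4 °C libraries. Of 11 tested histone genes 3 fell and none rose at 4 °C, with a median of -1.46. Hist1h2ap had 813 and 219 UMIs at 30 °C and 205 and 67 at 4 °C (-2.12, SE 0.26, edgeR adjusted p = 0.0017), and Hist1h2ab and Hist1h2ae fell by 3.42 and 1.99. The Hist1h2ab call was lost in 4 of 13 alternatives, 2 of them with a library left out. Those of Hist1h2ap and Hist1h2ae were lost in 2 of 14 each. All 16 histone genes together made up 0.958% and 0.809% of UMIs at 30 °C and 0.479% and 0.513% at 4 °C. The libraries also differed in the mix of S phase and mitotic cells given above, and its part in this difference was not tested. In non-cycling macrophages 3 of 7 tested histone genes fell at 4 °C, Hist1h2ap among them (-1.26), and 1 rose, beside 15.5% of all genes called there. In cycling T cells Hist1h2ap was lower at 4 °C too (-0.88, SE 0.08).

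Among cycle regulators, Ccnd1 had 13 and 17 UMIs at 30 °C and 116 and 38 at 4 °C (1.90, SE 0.46, edgeR adjusted p = 0.047), a call lost in 5 of 14 alternatives. Trp53inp1, a p53 target that restrains growth, had 38 and 19 against 10 and 0 (-2.94, SE 0.53), and Cebpb fell by 1.71 (SE 0.36). The calls of Trp53inp1 and Cebpb were lost in 4 and 3 of 14 alternatives, over which Trp53inp1 ranged from -7.64 to -1.40. In non-cycling macrophages the 3 changed in the same direction (2.02, -3.18 and -1.40).

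**Figure D5:**
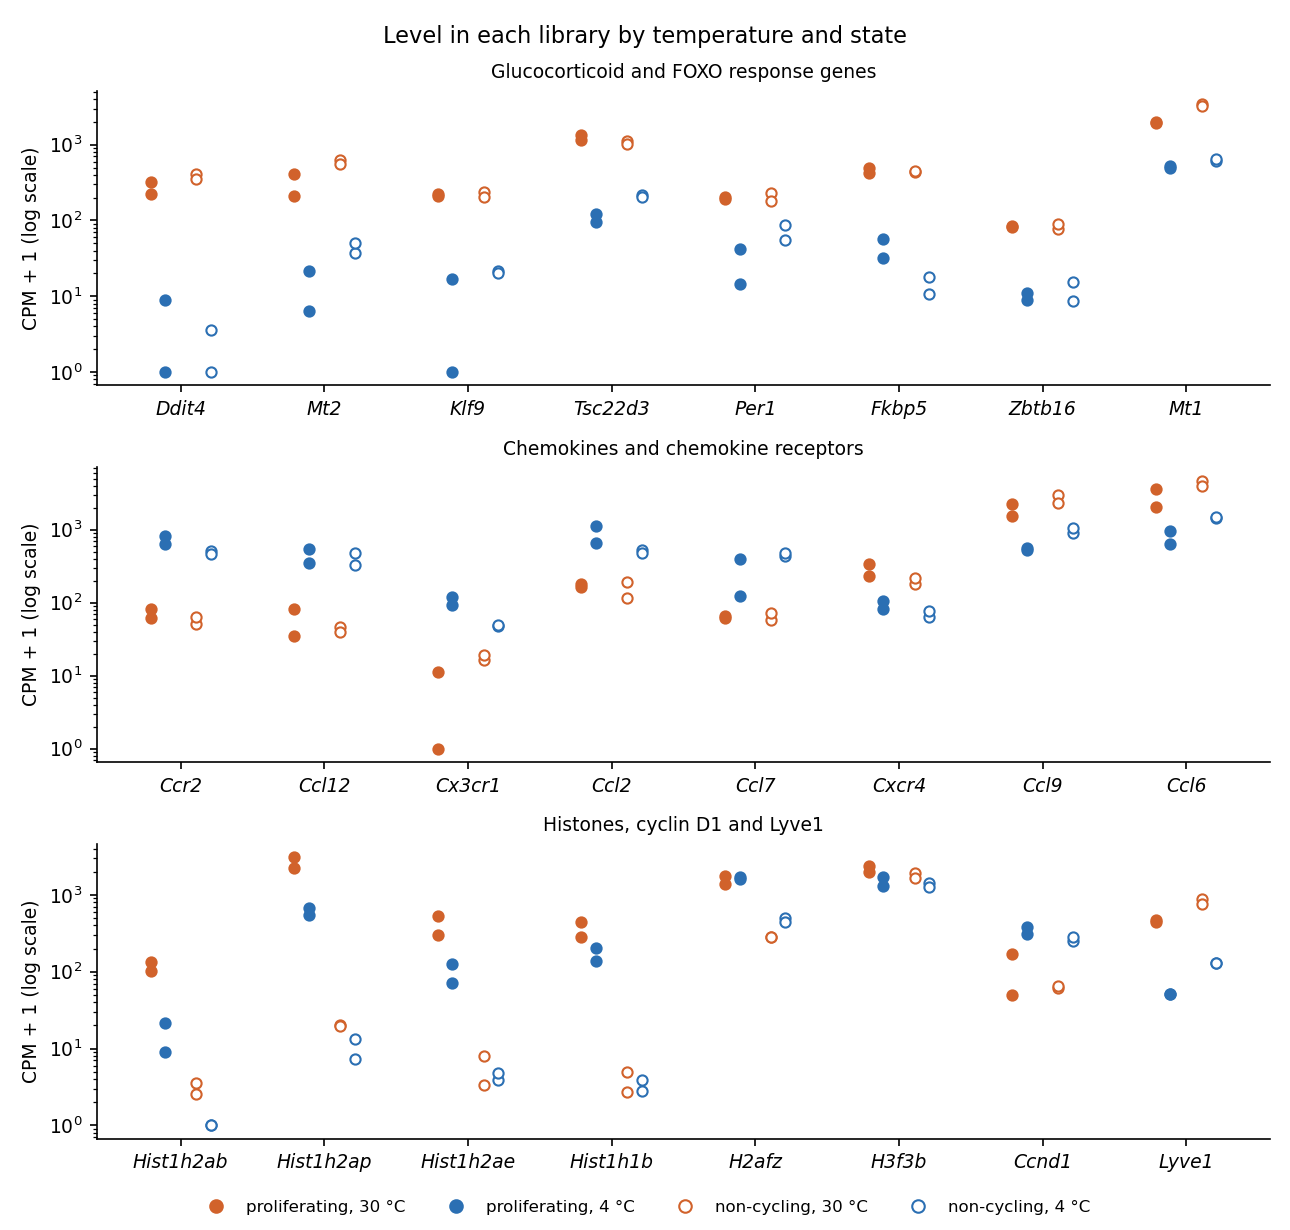
Points give the level of 24 genes in each library as CPM + 1 on a log axis, filled for proliferating and open for non-cycling macrophages, orange at 30 °C and blue at 4 °C, so that a level of 0 is drawn at 1. In proliferating macrophages both 4 °C libraries lie below both 30 °C libraries for all 8 genes of the top panel and for Lyve1, and above them for Ccr2, Ccl12, Cx3cr1, Ccl2, Ccl7 and Ccnd1.

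The effect of temperature was also compared between the 2 states, as the interaction of state and temperature in an edgeR model over the 8 sums. Of 8218 genes tested 4 (0.0487%) passed an adjusted p of 0.05, namely Igkc, Jchain and Retnla with a positive interaction (0.0365%) and Ccl8 with a negative one (0.0122%), and 389 genes had an unadjusted p under 0.05. None of the 4 was called in all alternatives. The sums of the 2 states of a library come from the same pool of mice, and more genes passed with a replicate block, as given below. For the genes of the glucocorticoid and FOXO list no interaction passed, with values such as -1.26 for Tsc22d3 and 1.62 for Fkbp5 (edgeR adjusted p = 0.182 and 0.284).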

How the data were processed

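Counts were made by the authors and deposited as filtered 10x matrices of UMI counts, not normalized. The matrix headers name Cell Ranger 3.0.0 and the submitters' processing notes name Cell Ranger 3.1.0, STAR, Seurat 4.2.0 and GRCm38/mm10. The values were whole numbers. Limits of more than 200 and fewer than 5000 genes and under 7.5% mitochondrial UMIs, close to those of the study's methods, left 5190, 5388, 5326 and 5345 cells, slightly fewer than the study's text gives, with median depths of 7861, 7518, 8065 and 7985 UMIs (30 °C replicates 1 and 2, then 4 °C replicates 1 and 2). The members and the gene lists were chosen with earlier results of these data known.

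UMIs were summed per library and state and tested in edgeR 4.0.16 (TMM, filterByExpr, quasi-likelihood, Benjamini-Hochberg), with library as a factor between states, and without the 8 genes of the rule. Replicates are separate pools of mice. Between temperatures, p-values measure the spread between libraries, which holds both differences between pools and the sampling of few cells. Between states and for the interaction, with library as a factor, they measure how far the difference between states varies over libraries. Shares used exact permutation tests (scipy 1.17.1) and 95% intervals by the exact method of Clopper and Pearson, for counting error only. Equal-depth shares are expectations over all draws of 8127 UMIs per cell, the 10th percentile of member depth. They replaced a single random draw after its dependence on the seed had been seen. Scrublet (scanpy 1.11.5, expected rate 6%) scored doublets, which were removed only as an alternative.

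Named genes are the 10 largest rises and 10 largest falls among called genes that moved the same way in all libraries with at least 20 UMIs, and members of the lists with their counts. The 10 largest genes of the cycle lists are named apart. Alternatives were DESeq2 1.42.0, other scaling and filters, other limits on cells, stricter macrophage rules, a replicate block, thinning and each library left out. Removal of cells with transcripts of other types, a minimum of 2 UMIs of each cycle criterion in the gene tests, and the comparison in cycling T cells were added after values had been seen. Clusters of the study were not used here. A few named genes were left out of the text.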

Additional observations from a re-analysis of the deposited data

Results flagged for a closer look

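The effect of 4 °C differed between proliferating and non-cycling macrophages by the interaction test in edgeR for 4 genes. Igkc had an interaction of 4.34 on the log2 scale (adjusted p = 5.0e-11), with 101, 36, 102 and 41 UMIs in proliferating macrophages (30 °C replicates 1 and 2, then 4 °C replicates 1 and 2) and 14273, 7091, 812 and 529 in non-cycling ones. Jchain, which joins secreted antibodies, had one of 3.20 (adjusted p = 0.0011), with 14, 12, 11 and 8 UMIs against 689, 1629, 120 and 69. For both genes 4 non-cycling cells held 89.2% of the Igkc and 84.7% of the Jchain UMIs of that state.

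Retnla had an interaction of 3.20 (adjusted p = 2.1e-05), from a rise of 3.83 (SE 0.53) in proliferating macrophages beside 0.44 (SE 0.16) in non-cycling ones. A single cell held 535 of its 545 UMIs in 4 °C replicate 2, and 84 of 89 in 30 °C replicate 1 were in another. Ccl8, a chemokine ligand of CCR2 and CCR8, had an interaction of -1.81 (adjusted p = 0.025), with 78, 56, 23 and 21 UMIs in proliferating and 1000, 1185, 1548 and 1395 in non-cycling macrophages. Single cells held 45, 49, 11 and 20 of the UMIs in proliferating ones, and the Ccl8 call was lost in 6 of 14 alternatives. Without cells that carry transcripts of other types the values were 3.44 for Retnla and -2.16 for Ccl8. Each of the 4 calls was lost in at least 1 alternative.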

How the results depend on the processing

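Between states, 853 genes were called, and 462 with the strict macrophage rule, 558 with cells thinned, and 574 to 896 with a library left out (574 without 4 °C replicate 1). For 4 °C against 30 °C in proliferating macrophages the 114 became 54 with DESeq2, 204 with no filter on low counts, 15 with no upper limit on genes, 17 with the strict rule, 52 with 2 UMIs of each cycle criterion, and 99 to 209 with a library left out (209 without 4 °C replicate 2). In non-cycling macrophages the 1313 became 620 with DESeq2 and 823 to 1406 with a library left out (823 without 4 °C replicate 1). The 4 interactions (3 with DESeq2) became 25 with no filter, 28 with the replicate block, 0 with no upper limit on genes (edgeR, 222 at an unadjusted p under 0.05), 0 with the strict rule (286 at an unadjusted p under 0.05), 20 without Scrublet doublets, 20 without cells of mixed transcripts, 12 with 2 UMIs of each criterion, and 13 to 44 with a library left out, each library changing it by over 1.5 times. The cause of these changes was not tested.

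The share difference of -2.34 points ranged from -5.80 to 1.13 with a library left out and turned positive without 30 °C replicate 1. The Folr2 difference of -3.00 points was 0.64 with all UMIs of each cell and ranged from -8.19 to 2.46 with a library left out. Hist1h2bc, 1.68 between states, was -0.060 with the strict rule and -0.27 with 2 UMIs of each criterion, and the Jchain interaction was -0.47 without cells of mixed transcripts, which are chosen in part by Igkc, and -0.29 with the strict rule. No other named gene turned. Deviations of samples with equal replicate numbers had r = 0.012 in proliferating and 0.045 in non-cycling macrophages. With 2 libraries per temperature, the deviations of a temperature mirror each other, so these values cannot decide whether the numbers pair the samples. With the replicate block 146 genes were called in proliferating and 1472 in non-cycling macrophages (share difference -2.34, p = 0.5, exact permutation within pairs). Cell numbers limit the temperature comparison: 2 of the 4 libraries held 6 and 7 proliferating macrophages, and 3325 genes could be tested there against 8465 in non-cycling ones.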
